A study of Mus musculus with 4 samples.

Results

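The values of 10 genes of the Notch pathway were followed in palatal mesenchyme that lacked the transcription factor Foxf2. The genes were the receptors *Notch1*, *Notch2* and *Notch3*, the ligands *Jag1*, *Jag2* and *Dll1*, and the target genes *Hes1*, *Hey1*, *Hey2* and *Heyl*. They were chosen by name, with earlier results of these data known, and all 10 had a value among the 21352 genes of the expression tables. In *Foxf2*-/- mesenchyme the ligand *Dll1* averaged 0.413 FPKM against 1.6 FPKM in the controls, and the target gene *Hey2* averaged 1.78 FPKM against 0.815 FPKM. The ligand *Jag1* averaged 6.55 FPKM against 8.55 FPKM, while the 3 receptors and the target gene *Hes1* differed less. None of these differences passed the test across all genes.

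Notch receptors and their ligands are membrane proteins, so the signal passes between cells that touch. A ligand on the sending cell pulls on a receptor of its neighbour, the receptor is cut by an ADAM protease and then by the gamma-secretase complex, and the freed intracellular part enters the nucleus. There it joins the DNA-binding protein Rbpj and turns on *Hes* and *Hey* genes, which encode transcriptional repressors of the basic helix-loop-helix family. In the embryo the pathway is best known for setting cell fates in neighbouring cells, for somite formation and for the development of vessels, and in the palate for the ligand *Jag2*, whose loss in the mouse causes cleft palate.

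RNA-seq was performed on 4 littermate embryos at E13.5, when the palatal shelves grow down beside the tongue. Of these, 2 were *Foxf2*-/-, which lack Foxf2 in every cell from conception, and the 2 controls were 1 *Foxf2*+/+ and 1 *Foxf2*+/- embryo. All 4 carried 1 *Osr2*-RFP knock-in allele in a mixed background, in which red fluorescent protein (RFP) marks the cells that express *Osr2*, and a library was made for each embryo from the sorted RFP-positive cells of its palatal shelves. Each control genotype therefore had 1 embryo and no replicate, and a difference between them cannot be told apart from the difference between individuals.

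Levels are given as FPKM, fragments scaled by the length of the transcript and by the size of the library, so that genes can be set side by side. Values are given in the order *Foxf2*+/+, *Foxf2*+/-, *Foxf2*-/- embryo 1 and *Foxf2*-/- embryo 2. *Foxf2* itself measured 85.4, 45.1, 1.41 and 2.28 FPKM, which follows the labels. *Osr2*, on which the sort rests, was at 129 to 148 FPKM in all 4 embryos. The tables hold no read numbers and the depth in reads is unknown, but by the deposited coverage the relative depths of the libraries were 1, 1.19, 1.02 and 1.14. In such bulk samples, fewer cells of a type and less RNA per cell cannot be told apart.

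Of the 10 genes, 8 reached 1 FPKM in at least 1 embryo and were tested among 11571 genes, and *Jag2* and *Heyl* did not. *Dll1* passed this filter only through its controls. Differences were fitted with limma on log2(FPKM + 0.1), and p-values were adjusted over all tested genes by the Benjamini-Hochberg method. limma called 0 of the 8 members at an adjusted p of 0.05, where it called 7 of all tested genes, which is 0.0605%. Without adjustment, 3 members had a p under 0.05 in limma (*Jag1*, *Dll1* and *Hey2*), as had 13% of all tested genes. A second rule asked only for size, a mutant mean more than 1.5-fold from each control in the same direction. *Hey2* passed it upward, where 0.925% of tested genes did, and *Dll1* passed it downward, where 0.847% did. An exact permutation test of 2 against 2 embryos cannot give a p below 0.333, which is the value for each member whose groups did not overlap.

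**Figure D1:**
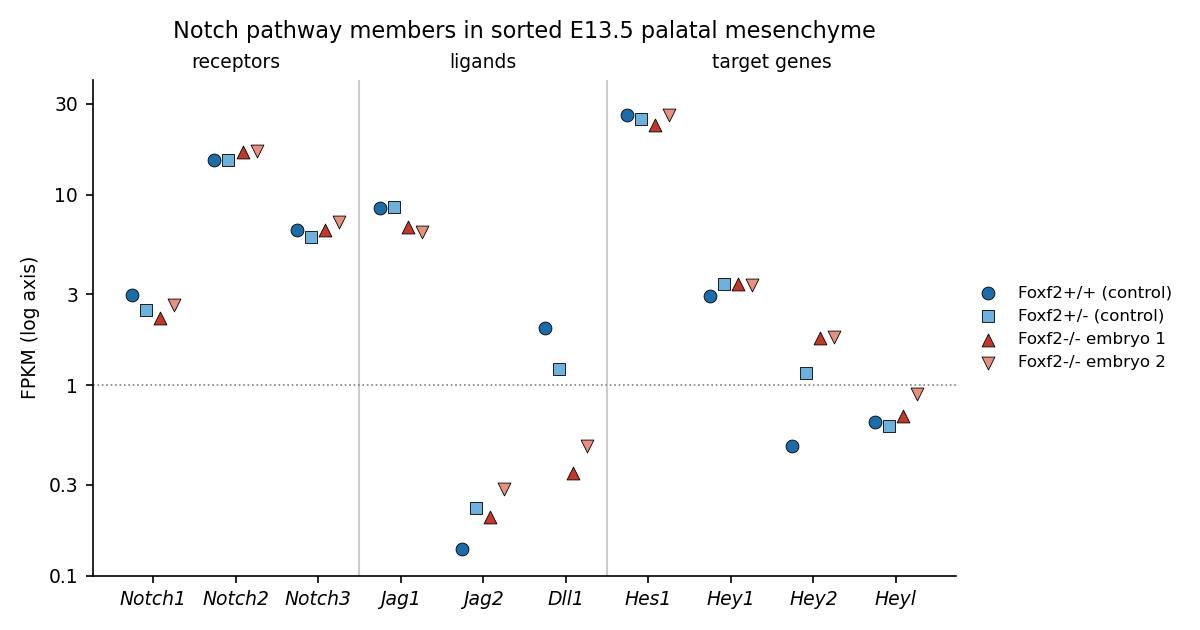
FPKM of the 10 genes in each of the 4 embryos, on a log axis, grouped into receptors, ligands and target genes, with 1 point per embryo and a dotted line at 1 FPKM. The points of *Hes1*, *Notch2* and *Hey1* lie close together in all 4 embryos, while those of *Dll1* fall from 1.98 FPKM in the *Foxf2*+/+ embryo to 0.346 FPKM in a mutant, and those of *Hey2* run from 0.478 to 1.80 FPKM.

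*Hes1* was the most abundant member, above 86.3% of the tested genes by its control mean, and *Notch2* was next, above 75% of them. They were followed by *Jag1*, *Notch3*, *Hey1*, *Notch1*, *Dll1*, *Hey2*, *Heyl* and *Jag2*. In the control embryos the neighbours *Hey1* and *Notch1*, and *Hey2* and *Heyl*, could not be separated, since their values overlapped. When the mutants were added, *Jag1* overlapped with *Notch3*, and *Dll1* overlapped with *Hey2*, which stood above it in both mutants.

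Among the receptors, *Notch2* made up 61.5% to 65.6% of the summed FPKM of the 3 genes in each embryo. *Notch2* (mm9 chr3:97817461-97954290, plus strand, 34 exons) was at 15.2, 15.1, 16.8 and 17.0 FPKM, so that both mutants stood above both controls. Its means were 16.9 ± 0.119 FPKM in the mutants and 15.2 ± 0.0346 FPKM in the controls (SD, n = 2 each), a log2 difference of 0.15 with a standard error of 0.09 (limma adjusted p = 0.5). The 95% interval of the difference was -0.05 to 0.36.

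*Notch3*, a receptor best known from the mural cells of vessels (chr17:32257838-32303797, minus strand, 33 exons), was at 6.53, 6.00, 6.55 and 7.17 FPKM. The groups did not overlap, but the lower mutant exceeded the *Foxf2*+/+ embryo by far less than the controls differed (log2 difference 0.13, interval -0.13 to 0.39, limma adjusted p = 0.66). Genes of pericytes and smooth muscle summed to 54.8, 50.6, 48.9 and 53.8 FPKM in the same embryos, mostly from *Pdgfrb* at 36.4 to 40.6 FPKM. Of these 9 genes, *Acta2* (3.00, 2.87, 3.33 and 3.95 FPKM), *Tagln* and *Kcnj8* were higher in both mutants, *Myh11* was lower in both, and the other 5 overlapped. Among all tested genes, which include 6 of these 9, 10.2% were higher in both mutants and 35.5% lower in both. The part of the pericyte and smooth muscle genes in the *Notch3* values was not tested. *Notch1*, a receptor with broad roles in the embryo (chr2:26313422-26359342, minus strand, 34 exons), was at 2.97, 2.49, 2.26 and 2.64 FPKM, and its groups overlapped (log2 difference -0.15, interval -0.54 to 0.24, limma adjusted p = 0.741). The summed FPKM of the 3 receptors was 24.7 and 23.6 in the controls and 25.6 and 26.8 in the mutants.

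*Notch2* and *Notch3* were 2 of the 3 tested members whose mutants both stood above both controls, with *Hey2*, where 10.2% of all tested genes did so. *Jag1* and *Dll1* were the 2 whose mutants both stood below both controls, where 35.5% of all tested genes did so. The median log2 difference over all tested genes was -0.08.

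The ligands were carried by *Jag1*, a Jagged ligand, which gave 80%, 85.7%, 92.5% and 89.3% of the summed ligand FPKM in the 4 embryos. *Jag1* (chr2:136907187-136942256, minus strand, 26 exons) was at 8.50, 8.59, 6.74 and 6.36 FPKM. The controls lay close together, and both mutants lay below them. Its means were 8.55 ± 0.0605 FPKM in the controls and 6.55 ± 0.267 FPKM in the mutants, a 1.3-fold difference that did not reach the 1.5-fold rule. The log2 difference was -0.38 with a standard error of 0.1 and an interval of -0.61 to -0.15, and the limma p was 0.00606 before adjustment and 0.266 after it.

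*Dll1*, a Delta ligand needed for somite segmentation and neurogenesis (chr17:15504318-15512787, minus strand, 11 exons), was the member with the largest difference. It was at 1.98, 1.21, 0.346 and 0.48 FPKM. Both mutants were below both controls, and the *Foxf2*+/- embryo lay between the *Foxf2*+/+ embryo and the mutants. The means were 1.6 ± 0.548 FPKM in the controls and 0.413 ± 0.0943 FPKM in the mutants (SD, n = 2 each), a 3.87-fold difference. The mutant mean was 0.208 of the *Foxf2*+/+ value and 0.342 of the *Foxf2*+/- value. On the log2 scale the difference was -1.70 with a standard error of 0.36 and an interval of -2.55 to -0.85, and the limma p was 0.00188 before adjustment and 0.178 after it.

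The *Foxf2*+/- embryo stood between the *Foxf2*+/+ embryo and both mutants in *Dll1*, as it did downward in 23.5% of all tested genes, and upward in *Hey2*, as in 5.19% of them. The deposited coverage of *Dll1*, the mean number of reads over each base, was 2.69 and 1.95 in the controls and 0.482 and 0.744 in the mutants, so that the mutant values rest on less than 1 read per base on average. A noncoding RNA gene on the opposite strand, A930024N18Rik, overlaps *Dll1* in the annotation, and whether reads were assigned by strand was not given in the sources used here, so reads of the pair cannot be told apart in the overlap. The same holds for *Notch1* and *Notch3*, which overlap such genes too. Skeletal muscle genes summed to 0.6, 0.68, 0.366 and 0.179 FPKM. All 5 of them were under 1 FPKM, and in limma 0 of the 5 could be tested. *Myog* was listed at 0 in every embryo, *Pax7* and *Actc1* were lower in both mutants, and *Myod1* and *Myf5* overlapped between the groups. Genes of neurons and glia went the other way and summed to 3.55, 5.39, 5.57 and 5.73 FPKM. Of these, *Sox10* and *Foxd3*, both under 1 FPKM, were higher in both mutants, and the others overlapped. The part of either list in the *Dll1* values was not tested.

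*Jag2*, the other Jagged ligand (chr12:114146801-114167706, minus strand, 26 exons), was below the filter at 0.138, 0.227, 0.204 and 0.286 FPKM, and its groups overlapped. In the fit without a filter its log2 difference was 0.30 with a standard error of 0.29 (limma adjusted p = 0.752). The summed FPKM of the 3 ligands was 10.6 and 10.0 in the controls and 7.29 and 7.13 in the mutants, of which *Dll1* made up 18.7% and 12.1% in the controls and 4.75% and 6.73% in the mutants.

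**Figure D2:**
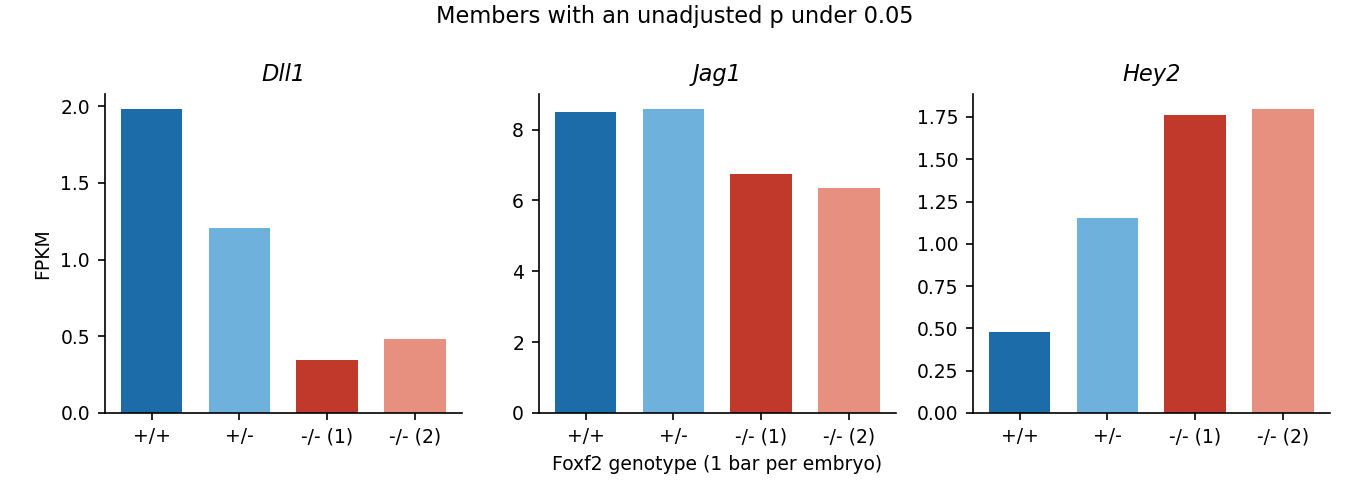
FPKM of *Dll1*, *Jag1* and *Hey2* on linear axes that start at 0, with 1 bar per embryo and a separate scale for each gene. Both mutants stand below both controls in *Dll1* and *Jag1* and above both in *Hey2*, and the *Foxf2*+/- bar lies between the *Foxf2*+/+ bar and the mutants in *Dll1* and *Hey2* but level with the *Foxf2*+/+ bar in *Jag1*.

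Among the target genes, *Hes1* (chr16:30065443-30067882, plus strand, 4 exons) made up 79.9% to 86.6% of the summed FPKM of the 4 genes. It was at 26.0, 24.9, 23.2 and 26.1 FPKM, with groups that overlapped throughout. The log2 difference was -0.05 with an interval of -0.28 to 0.18 (limma adjusted p = 0.867), and its sign turned with the scaling between libraries. *Hey1* (chr3:8663359-8667038, minus strand, 5 exons) was at 2.93, 3.38, 3.39 and 3.34 FPKM, and the *Foxf2*+/+ embryo stood lower than the other 3 (log2 difference 0.09, interval -0.23 to 0.41, limma adjusted p = 0.806). 

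*Hey2*, a repressor known for its part in artery and heart development (chr10:30552165-30562589, minus strand, 5 exons), was at 0.478, 1.15, 1.76 and 1.80 FPKM. The mutants were alike and both stood above both controls, but the controls differed more from each other than the *Foxf2*+/- embryo differed from the mutants. The means were 1.78 ± 0.0283 FPKM in the mutants and 0.815 ± 0.476 FPKM in the controls, a 2.18-fold difference. The mutant mean was 3.72 times the *Foxf2*+/+ value but 1.54 times the *Foxf2*+/- value, and on the log2(FPKM + 0.1) scale the second fold was 1.501, at the edge of the rule. Without the second mutant embryo it was 1.485, and with a pseudocount of 1 it was 1.291, both short of the rule. The log2 difference was 1.14 with a standard error of 0.37 and an interval of 0.28 to 2.01, and the limma p was 0.0164 before adjustment and 0.31 after it.

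The coverage of *Hey2* was 0.650 and 1.86 in the controls and 2.45 and 2.79 in the mutants. The summed FPKM of several marker lists had the same order of embryos. Genes of the endothelium, whose cells a sort on *Osr2*-RFP should leave out, summed to 0.986, 1.60, 1.91 and 2.77 FPKM. All 10 of these genes were under 1 FPKM in every embryo, with *Cldn5* listed at 0 in all 4 and *Tie1* at 0 in 3, while *Cdh5*, *Kdr*, *Emcn* and *Egfl7* were higher in both mutants than in both controls and *Pecam1*, *Tek*, *Flt1* and *Esam* overlapped between the groups. Blood genes, most of all the hemoglobins, summed to 23.6, 77.1, 72 and 167 FPKM, and were lowest in the embryo where *Hey2* was lowest. Of the 7 blood genes, *Hbb-b1* and *Csf1r* were higher in both mutants and the others overlapped. Genes of the palatal epithelium summed to 7.46, 8.47, 8.69 and 9.49 FPKM. Those of neurons and glia summed to 3.55, 5.39, 5.57 and 5.73 FPKM. These sums followed the order of *Hey2* too, but no single gene of either list did. Both mutants stood above both controls in 4 of the 9 epithelial genes and in 2 of the 6 neuronal and glial genes. The other genes of these 2 lists overlapped between the groups. Among all tested genes, 10.2% had both mutants above both controls. That share covers only genes that reached 1 FPKM, which all 10 endothelial, 4 epithelial and 4 neuronal and glial genes did not. The genes of palatal mesenchyme summed to 864, 780, 711 and 805 FPKM. Of these, *Prrx1*, *Twist1*, *Pdgfra* and *Shox2* were lower in both mutants, as were 35.5% of all tested genes. *Osr1* was higher in both mutants, and *Osr2*, *Msx1* and *Barx1* overlapped between the groups. In limma 0 of the 10 endothelial genes could be tested, and no call was possible. Of the other lists in this comparison 5 of 7 blood genes, 8 of 8 mesenchymal, 5 of 9 epithelial and 2 of 6 neuronal and glial genes were tested, and limma called none of them. Their part in the *Hey2* values was not tested.

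*Heyl* (chr4:122910799-122927113, plus strand, 5 exons) was below the filter at 0.639, 0.613, 0.685 and 0.895 FPKM. Both mutants stood above both controls, but the nearer mutant by less than the mutants differed from each other. In the fit without a filter the log2 difference was 0.28 with a standard error of 0.25 (limma adjusted p = 0.72). The summed FPKM of the 4 target genes was 30.1 in each control and 29 and 32.2 in the mutants, and *Hey2* made up 1.59% and 3.83% of it in the controls and 6.07% and 5.59% in the mutants.

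**Figure D3:**
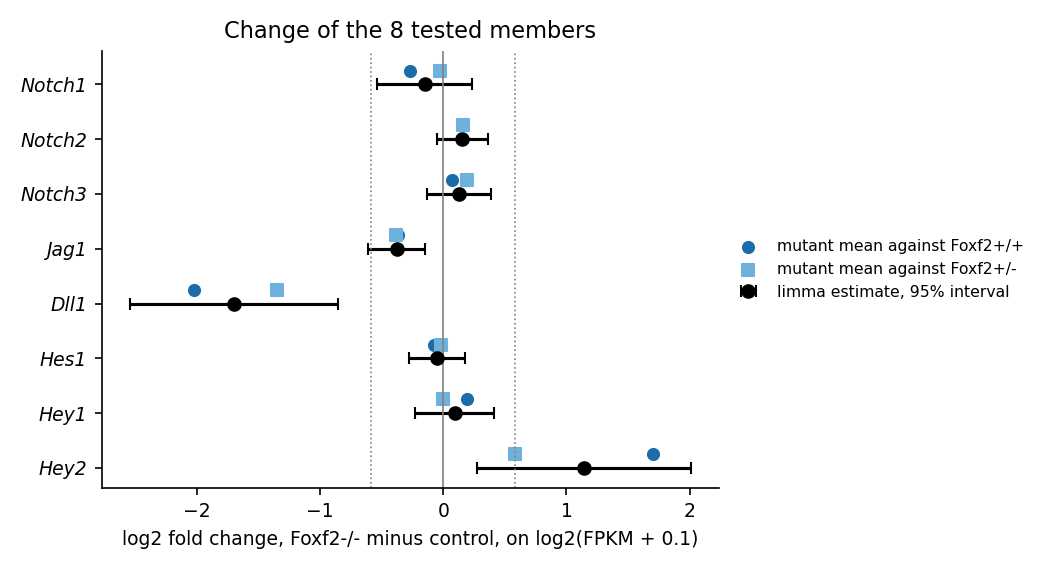
Log2 differences of the 8 tested members, mutant minus control, with the limma estimate and its 95% interval in black and the mutant mean against each control in blue above it. The dotted lines mark 1.5-fold in either direction. *Dll1* and *Hey2* lie beyond the lines, the interval of *Jag1* (-0.61 to -0.15) lies below 0 while its estimate stays inside the lines, and the intervals of the other 5 members span 0.

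The sequences before the starts of *Dll1* and *Hey2* are shown because these were the members past the 1.5-fold rule. They were taken from RefSeq on GRCm38.p6, a later build than the mm9 of the expression files, and were searched on both strands for GTGGGAA, a core site of Rbpj, and TAAACA, a core of forkhead sites such as those bound by Foxf2. Windows of 300 bases, from 250 before to 50 after a start, were matched for 7 of the 10 members and gave 8 windows, since *Dll1* has 2 annotated starts. No window was matched for the target genes *Hes1*, *Hey1* and *Heyl*, so these were not searched. The 250 bases before each start are printed 5′ to 3′ on the gene's strand, with capitals for a match to the Rbpj letters. The *Dll1* starts lie at chr17:15375824-15376073 and chr17:15376933-15377182 (minus strand) and that of *Hey2* at chr10:30842784-30843033 (minus strand), these being the printed stretches.
Dll1, first start: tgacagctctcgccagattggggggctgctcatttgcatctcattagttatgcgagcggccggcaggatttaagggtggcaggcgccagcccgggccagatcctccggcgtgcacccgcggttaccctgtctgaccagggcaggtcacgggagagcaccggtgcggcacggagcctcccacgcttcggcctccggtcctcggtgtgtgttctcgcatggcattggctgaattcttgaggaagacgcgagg
Dll1, second start: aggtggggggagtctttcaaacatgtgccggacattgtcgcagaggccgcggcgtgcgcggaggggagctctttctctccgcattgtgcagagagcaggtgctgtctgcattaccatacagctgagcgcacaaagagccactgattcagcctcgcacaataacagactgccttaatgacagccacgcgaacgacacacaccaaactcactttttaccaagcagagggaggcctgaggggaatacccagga
Hey2: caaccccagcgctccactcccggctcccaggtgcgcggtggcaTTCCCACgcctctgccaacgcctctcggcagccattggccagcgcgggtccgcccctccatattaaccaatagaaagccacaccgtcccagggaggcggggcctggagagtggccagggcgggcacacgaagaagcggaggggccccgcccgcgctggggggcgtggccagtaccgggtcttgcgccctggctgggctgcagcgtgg
In *Hey2* the Rbpj letters were found on the minus strand at -207 to -201 and on the plus strand from -4 to 3, across the start and outside the printed part. They were found in 6.38% of all 32851 windows and in 1 of the 8 member windows. The forkhead letters were found in 13.4% of all windows and in none of the 8. These matches describe letters in the windows.

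The rest of the pathway was described by a list of 71 genes in the files, of which 52 were tested, and 44 of those were not among the 10 members. limma called 0 of the 44, and 4 had an unadjusted p under 0.05, where 13% of all tested genes did. Of the 44, 8 had both mutants above both controls, against 10.2% of all tested genes, and 15 had both below, against 35.5%, and the median log2 difference was -0.05, against -0.08 for all tested genes. Only *Dlk2* among the 44 passed the 1.5-fold rule. It reached 1 FPKM only in its controls, and it no longer passed the rule with median-of-ratios scaling, with a pseudocount of 1 or without the second mutant embryo. It encodes a Delta-like protein and was at 1.11, 1.15, 0.773 and 0.59 FPKM (limma adjusted p = 0.41). Its relative *Dlk1*, known as an inhibitor of adipocyte differentiation, was at 22.7, 15.9, 16.4 and 20.3 FPKM with no separation of the groups.

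The DNA-binding partner *Rbpj* was at 16.7, 16.5, 15.5 and 16.8 FPKM. Among the genes that cut the receptor, 3 of the 8 tested stood higher in both mutants and 3 lower, beside 10.2% and 35.5% of all tested genes. *Psenen*, a subunit of gamma-secretase, was at 65.2, 65.8, 75.3 and 95.1 FPKM, a 1.3-fold difference (limma adjusted p = 0.308), and *Ncstn*, another subunit, was at 14.9, 14.7, 16.0 and 16.5 FPKM. *Adam10*, the protease of the first cut, was at 7.89, 7.48, 5.82 and 6.23 FPKM, lower in both mutants. Its limma p was 0.0117 before adjustment and 0.301 after it. Among the genes that add sugars to the receptor, *Rfng*, which extends fucose on the extracellular domain, was at 5.40, 5.34, 3.97 and 4.55 FPKM (limma adjusted p = 0.338), and *Poglut1* was at 18.0, 17.9, 17.0 and 17.4 FPKM. All 3 tested genes of this group were lower in both mutants, as were 35.5% of all tested genes. The other 2 genes of the group, below the filter, went the other way, with *Lfng* at 0.1, 0.102, 0.23 and 0.332 FPKM and *Mfng* at 0.058, 0.0254, 0.143 and 0.126 FPKM. Their control values were near or below the pseudocount of 0.1. In the fit without a filter the limma adjusted p was 0.409 for *Lfng* and 0.444 for *Mfng*.

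The ubiquitin ligase *Mib1*, which lets ligands be internalised, was at 15.8, 15.3, 13.8 and 14.4 FPKM, and *Mib2* was at 3.17, 2.66, 2.13 and 2.57 FPKM. *Itch*, a ligase that removes receptors, was at 14.1, 15.0, 13.7 and 13.8 FPKM, and *Dtx3* at 18.0, 18.4, 17.3 and 23.9 FPKM. *Numb*, from the same list of inhibitors and trafficking genes, was at 9.09, 7.90, 6.53 and 6.96 FPKM, lower in both mutants. The limma p of *Numb* was 0.0221 before adjustment and 0.332 after it. In the nuclear complex *Ep300* was at 25.2, 24.8, 27.5 and 24.8 FPKM and *Snw1* at 19.8, 20.2, 20.1 and 19.4 FPKM. Among 11 co-repressors the median log2 difference was -0.03, with *Ncor1* at 25.0, 24.3, 25.0 and 24.5 FPKM and *Hdac1* at 50.3, 47.3, 44.6 and 46.8 FPKM. *Hes6*, a *Hes* gene outside the members, was at 5.05, 3.90, 2.17 and 4.23 FPKM, so the mutants differed from each other by more than the group means did (limma adjusted p = 0.473). Of the receptors and ligands outside the members, *Notch4*, *Dll3* and *Dll4* were under 1 FPKM in every embryo, and *Hes2* and *Hes5* were listed at 0 in all 4. *Hes7*, also below the filter, was at 0.141, 0.123, 0 and 0 FPKM, lower in both mutants. Its control values were near the pseudocount of 0.1, and in the fit without a filter its limma adjusted p was 0.364.

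**Figure D4:**
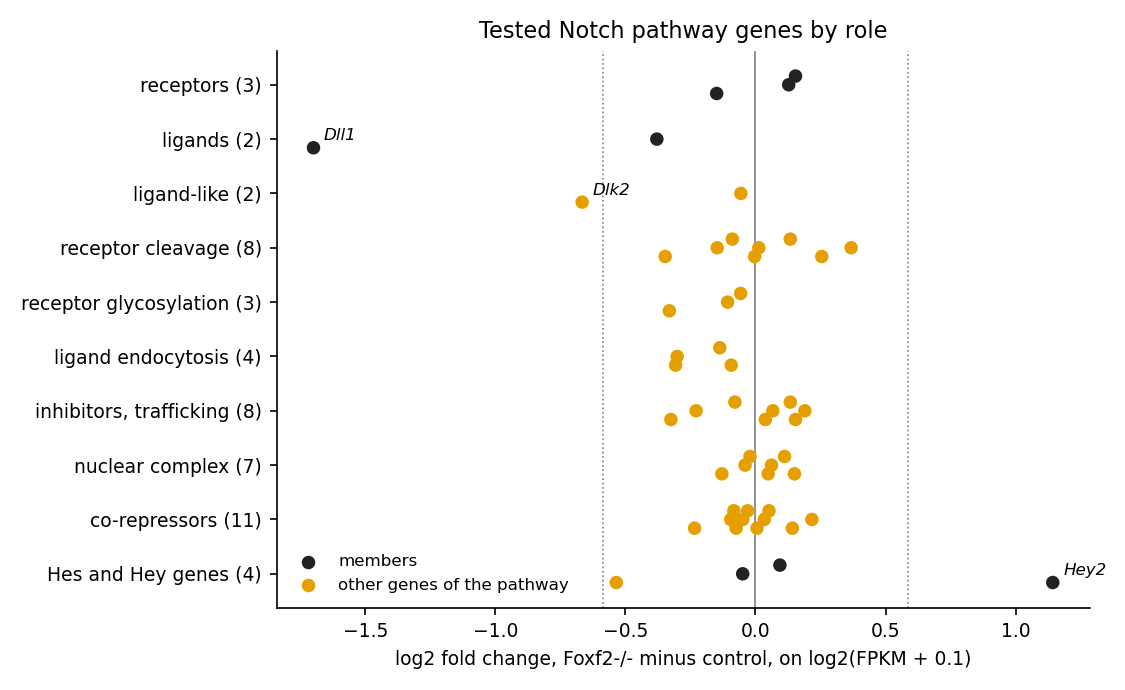
Log2 differences of the 52 tested genes of the pathway, mutant minus control, in rows by role with the number of tested genes in parentheses, members in black and other genes in orange. The dotted lines mark 1.5-fold. *Dll1*, *Dlk2* and *Hey2* lie beyond the lines and the other genes between them.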

How the data were processed

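RFP-positive cells of microdissected palatal shelves of 4 embryos were sorted after trypsin digestion, and libraries were made with a Nextera kit. Per the labels, single-end reads were aligned by the authors with Tophat and Bowtie 0.12.7, against mm9. The authors deposited 1 table of RefSeq transcripts per embryo, in the form Cufflinks writes, with FPKM for each of 28107 entries. Beside it stands the deposited coverage, the mean read depth of an entry, which moves with library size. For the estimating program, version and options are not given in the sources used here.

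Entries under 200 bases (801), whose FPKM are unstable, and 10 genes with a failed estimate were left out, and FPKM were summed by symbol. Genes with at least 1 FPKM in at least 1 embryo were fitted in limma 3.58.1 (R 4.3.3) with a variance trend on log2(FPKM + 0.1), a scale that shrinks changes of low genes, with Benjamini-Hochberg adjustment and a threshold of 0.05. The 1.5-fold rule was applied to the same log values. Other steps used pandas 2.3.3 and scipy 1.17.1 in Python 3.11.15. Each group had 2 embryos, so the p-values rest on little replication. Without read numbers, no counting interval is given.

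The members, the pathway and marker lists, and the tests were chosen with earlier results of these data known. All 10 members were named. Of the other tested pathway genes, those past limma or the 1.5-fold rule and the 2 highest of each role were named. So were those with groups apart and a mean difference above 1.5-fold. *Rbpj*, *Adam10*, *Numb*, *Lfng*, *Mfng*, *Notch4*, *Dll3*, *Dll4*, *Hes2*, *Hes5* and *Hes7* were named after their values were seen. Other pathway genes near 0 were not named. The 13 alternatives varied the pseudocount, filter, entry length, scaling, summing, model and embryos.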

Additional observations from a re-analysis of the deposited data

How the results depend on the processing

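The 2-embryo groups limit every call, and both control genotypes are single embryos. In all 13 alternatives limma called 0 members (3 had an unadjusted p under 0.05 with the settings of the report). The log2 difference of *Dll1* ranged from -2.10 to -0.86 (limma adjusted p 0.121 to 0.792), that of *Hey2* from 0.59 without the *Foxf2*+/+ embryo to 1.70 without the *Foxf2*+/- embryo (0.1 to 0.82) and that of *Jag1* from -0.42 to -0.30 (0.225 to 0.785). The sign turned for *Hes1* with scaling by the median of ratios (0.031) and when single embryos were left out (-0.136 to 0.038), and for *Hey1* when single embryos were left out (-0.006 to 0.195). Beside 7 genes in all, limma called 11 with a pseudocount of 1, 27 with entries of every length, 12 with median-of-ratios scaling, 17 with separate genotype means and 15 with a linear term for alleles. It called 0 without a filter, with the highest entry per gene, or without a variance trend, and 7 without the *Foxf2*+/+ embryo, 38 without *Foxf2*+/- and 12 without either mutant, where the lone embryo of a group is assumed to vary like the other group. The 1.5-fold rule took 205 genes in all, against 72 with a pseudocount of 1, 47 with a filter of 5 FPKM, 662 without a filter, 328 with every length, 314 with the highest entry, and 405 without *Foxf2*+/+, 711 without *Foxf2*+/-, and 302 and 319 without each mutant. Of the members it took 2, but 1 with a pseudocount of 1 (*Dll1*, *Hey2* being 1.291-fold from *Foxf2*+/-), 0 with a filter of 5 FPKM, where neither was tested, and 1 to 2 with 1 embryo left out. *Hey2* was lost without *Foxf2*-/- embryo 2 (1.485-fold). With a control left out, the rule asked for 1.5-fold from the remaining control only, which is looser than against both. Of the pathway list it took 3, but 2 with median-of-ratios scaling (without *Dlk2*), 1 with a pseudocount of 1, 0 with a filter of 5 FPKM, 5 without a filter, 5 with the highest entry, and 2 to 4 with 1 embryo left out. No paired analysis was possible because the labels number only the *Foxf2*-/- embryos.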
